A study of Mus musculus with 4 samples.

Results

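Lymphocytes of the mouse testis were described from 247 single cells among 57727 cells kept in 4 droplet single-cell RNA libraries. Cells were chosen by the measured UMIs of gate genes, so differences in those genes between gated and other cells are no finding. A cell was counted when at least 2 of the 8 genes Cd3e, Cd3d, Cd3g, Trbc2, Nkg7, Cd79a, Ms4a1 and Ptprc were detected. Their sum also had to reach at least 5 per 10,000 unique molecular identifiers (UMIs, each standing for 1 captured transcript), and the macrophage genes C1qa, C1qb, C1qc and Csf1r had to be at 0. Kept cells had 200 genes or more, and mitochondrial UMIs were no more than 20%. The libraries came from collagenase- and dispase-dissociated testes of mice, fed either a high-fat diet (HFD, 2 libraries) or a normal diet (ND, 2 libraries). Strain, age, length of feeding, genotype and batch are not given in the sources used here. Nothing says that each library came from a separate animal, so p-values measure only the spread between libraries, which may be technical. The 4 libraries held 143748262 to 154221188 UMIs, and their smallest barcodes held 1638 (HFD 1), 1468 (HFD 2), 1141 (ND 1) and 1171 UMIs (ND 2). No gated cell shared its barcode with a gated cell of another library, although 337 barcodes were kept in more than 1 library when counted over pairs of libraries.

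T cells recognise antigen through a receptor of paired alpha and beta or gamma and delta chains, carried with the CD3 proteins. The testis interstitium normally holds a small resident leukocyte population, mostly macrophages with some T cells, and the seminiferous tubules are kept apart from it by the Sertoli cell barrier. Type I and type II interferons act through JAK kinases and STAT factors. They induce a shared set of antiviral genes, many of which carry an interferon-stimulated response element near their start.

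Of the genes called between the diets in these cells, such genes had the largest log2 ratios. Of the 13 interferon-induced genes tested, the upstream bases of the 3 with the fewest HFD UMIs, at or near 0 in both libraries, are shown. They are Ifit1 and Ifit3, which bind viral RNA or form complexes with proteins that do and were called, and Trim30a, a RING-domain protein of the TRIM family that did not pass. The sequences are from RefSeq on GRCm38.p6, 250 bases upstream of the annotated start, 5′ to 3′ on the strand of the gene. Ifit1 lies on the plus strand at chr19:34640639-34640888, Ifit3 on the plus strand at chr19:34583279-34583528 and Trim30a on the minus strand at chr7:104465194-104465443. Capitals mark each match to GAAA followed, after any 2 bases, by GAAA again, or to the reverse complement of that pattern, searched on both strands. Overlapping matches were counted separately.
Ifit1: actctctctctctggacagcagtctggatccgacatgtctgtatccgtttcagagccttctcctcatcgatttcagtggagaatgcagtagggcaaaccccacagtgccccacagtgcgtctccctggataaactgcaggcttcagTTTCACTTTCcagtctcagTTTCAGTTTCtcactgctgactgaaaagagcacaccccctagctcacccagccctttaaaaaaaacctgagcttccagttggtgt
Ifit3: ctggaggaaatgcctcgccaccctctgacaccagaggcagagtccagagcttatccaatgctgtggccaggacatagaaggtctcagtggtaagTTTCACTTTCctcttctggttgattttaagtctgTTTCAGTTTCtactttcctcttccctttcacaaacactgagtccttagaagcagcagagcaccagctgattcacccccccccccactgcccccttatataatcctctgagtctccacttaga
Trim30a: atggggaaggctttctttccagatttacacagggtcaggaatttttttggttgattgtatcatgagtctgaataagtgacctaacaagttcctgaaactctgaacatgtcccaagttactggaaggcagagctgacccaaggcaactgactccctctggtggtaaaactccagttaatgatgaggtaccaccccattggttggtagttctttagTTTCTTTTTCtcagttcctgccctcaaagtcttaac

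The matches began at positions -104 and -85 in Ifit1, -156 and -122 in Ifit3 and -36 in Trim30a, with -1 the base before the start. Trim30a has another annotated start whose window held 0 matches. A match occurred in 25 of the 46 interferon-induced list genes that the promoter table held (54.3%), against 936 of all 27025 genes in it (3.46%) and 94 of the 2618 matched genes among those tested here (3.59%). Bst2, Ifi203, Igtp, Gbp7 and Mndal also had at least 1 match, while the windows of Ly6c2, Sp100 and Epsti1 had 0. The promoter table held 10 of the 13 tested list genes and lacked Ifi27l2a, Ly6a and Ly6e, so their upstream bases were not read. These letters are a description of the windows. No binding was measured.

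Genes of T cell receptor signalling outside the gate were detected in part of the gated cells, from 5.67% for Trdc to 30.4% for Thy1 over the 22 genes of the list. Ccl5, a chemokine of effector T and NK cells, was detected in 74.1% of them, against 1.40% of the 428 macrophage-gated and 6.15% of the 10570 spermatid-gated cells. Median depths were 2112 UMIs in the gated cells, 2661.5 in macrophage-gated and 6138 in spermatid-gated cells. The receptor chain genes Trac and Trbc1 had a UMI in 27.9% and 25.1% of gated cells and in 0% of macrophage-gated cells, whose gate required 0 UMIs of the T and B gate genes. Lck, the kinase that starts receptor signalling, had a UMI in 21.9%, and Zap70, the kinase that acts after it, in 9.31%. Lcp2, an adaptor that other leukocytes also carry, was in 8.91%, against 13.1% of macrophage-gated cells. Shares of this size are set partly by depth, because a cell with few UMIs can miss a gene that it expresses.

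CD8 transcripts were detected in more cells than Cd4. Cd8a or Cd8b1, the chains of the co-receptor for MHC class I, were detected in 21 of 59 and 19 of 56 HFD cells (HFD 1 and 2) and in 20 of 70 and 24 of 62 ND cells. That is 84 cells or 34.0% (95% Clopper-Pearson interval 28.1 to 40.3), and the libraries overlapped between diets. Cd4 had a UMI in 11 cells or 4.45% (2.24 to 7.83), against 6.07% of macrophage-gated and 0.785% of spermatid-gated cells. Per 10,000 UMIs Cd4 stood at 0.198 in the gated cells and 0.179 in macrophage-gated cells. No cell had both, and 152 cells had neither. Foxp3, the factor that defines regulatory T cells, had 0 UMIs in all 4 libraries. With the limit taken as 3 over the number of gated cells, that allows a share of cells with a UMI of up to 4.29% to 5.36% per library. Such limits and the intervals cover counting error only, and do not limit the share of cells that express a gene at this depth.

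A small set carried the constant region of the delta receptor chain. Trdc was detected in 3 and 4 HFD cells and in 4 and 3 ND cells, with 51 UMIs in all. None of these 14 cells had Cd8a, Cd8b1 or Cd4, while 2 of them, 1 in ND 1 and 1 in ND 2, also had the alpha chain gene Trac. Of the 14, 9 also held Cd163l1, a scavenger receptor known from gamma delta T cells, out of 12 gated cells with that gene. Cxcr6, a chemokine receptor of tissue-resident lymphocytes, was in 11 of the 14, while Ccl5 was in 1 and Gzmb, Ifng, Xcl1 and Ly6c2 were in 0. Of the 84 cells with CD8 transcripts, 80 had Ccl5, 22 had Gzmb, 22 had Ifng and 43 had Ly6c2. These counts describe co-detection, and were not tested.

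**Figure D1:**
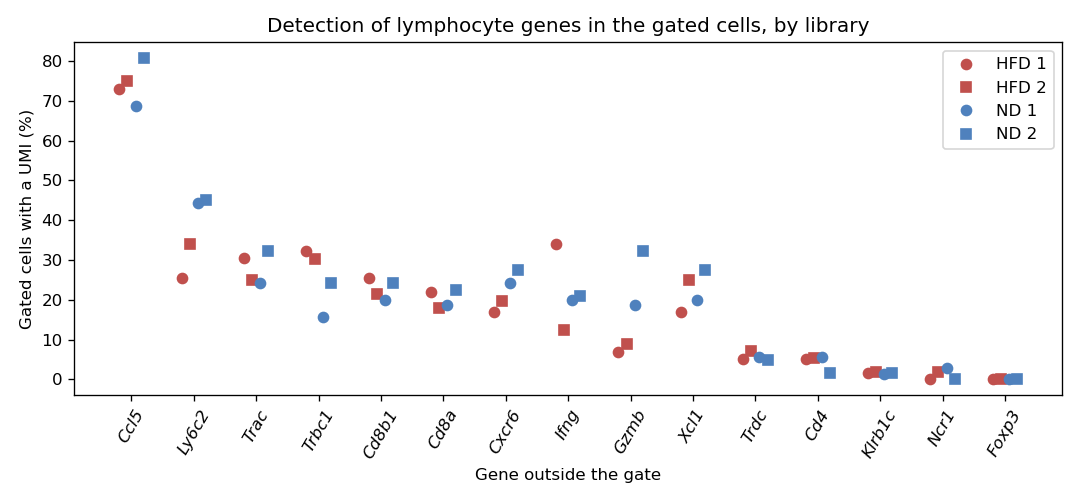
Share of gated cells with at least 1 UMI (y axis, percent) of 15 genes that the gate did not use (x axis), with 1 point per library, red for HFD and blue for ND. Ccl5 stands highest in every library, while Cd4, Klrb1c and Ncr1 are near 0 and Foxp3 is at 0.

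B cell genes were in few cells. B cells, marked by the receptor component Cd79a or by Ms4a1 without T genes, numbered 2, 0, 3 and 0. All UMIs of Cd74 (22, 0, 20 and 0) and of the light chain Igkc (18, 0, 7 and 0) came from the same libraries as those cells, HFD 1 and ND 1. Genes of the cytotoxic and NK list ranged widely below Ccl5. The NK receptor genes Ncr1 and Klrb1c had a UMI in 3 and 4 cells, and the granule genes Gzma and Prf1 in 1 and 6. Il2rb and Ctsw were in 49 cells each, Gzmb in 42, and Klrk1, Gzmk and Klrd1, which T cells can also carry, in 28, 18 and 15. S1pr1, which serves exit from lymph nodes, was in 5 cells and Ccr7, which serves entry to them, in 0. Of the checkpoint list, Pdcd1, the PD-1 receptor, and Ctla4 were in 8 cells each and Havcr2 and Tigit in 1 each. At least 1 of its 9 genes was detected in 49 gated cells.

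The makeup follows from the gate genes and is a description, with no test. Cells with a CD3 gene and no B gene numbered 49, 48, 61 and 57, or 215 in all. Cells with Trbc2 but no CD3 gene numbered 16, and cells with Nkg7 and no T or B gene 11. No cell held both T and B genes. CD3 cells made up 84.4% ± 1.88 (SD, n = 2 libraries) of the gated cells in HFD and 89.5% ± 3.39 in ND. The difference of -5.16 percentage points was -2.76 without ND 2.

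Detection of the gate genes, which follows in part from the gate, is given as a description. Cd3g and Cd3e were in 61.9% and 31.6% of gated cells and in 0.104% and 0.0284% of spermatid-gated cells, and Nkg7 was in 60.7% and 0.0568%. Cd3d was in 48.2% of gated cells but also in 22.3% of spermatid-gated cells, where Trbc2 was in 7.19%. Of the 247 cells, 6 were gated on Cd3d and Trbc2 alone. Cd247 and Itgae, the CD103 integrin of resident T cells, were detected more widely in spermatid-gated cells (12.1% and 65.3%) than in gated cells (10.1% and 48.6%), which are shallower. Per 10,000 UMIs they stood higher in the gated cells, at 0.479 and 3.14 against 0.202 and 1.75. At the threshold, 3, 4, 3 and 1 cells had a gate sum of 5 to 6 per 10,000 UMIs and 4, 6, 3 and 1 had 4 to 5. Only 5 cells failed on the macrophage genes alone.

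RNA of other testis cells was measured in the gated cells. Of 14 further macrophage genes, 5 had a UMI, with a summed level of 0.285 to 0.518 per 10,000 UMIs over the libraries, against 181 in macrophage-gated cells. The Leydig cell list stood at 0.293 and 4.78 in HFD and 8.55 and 0.427 in ND, in no order of diet. Prm2, a protamine that packs sperm DNA, had a UMI in all 247 gated cells and in 99.5% of macrophage-gated cells, so spermatid transcripts were found in nearly every cell of both populations. The median sum of Prm1, Prm2, Tnp1 and Tnp2 in gated cells was 117 and 96.6 per 10,000 UMIs in the HFD libraries against 120 and 126 with ND. A few cells stood apart at 500 or more. They numbered 0 and 2 in the HFD libraries against 3 and 2, and 4 of these cells were among the 6 gated on Cd3d and Trbc2 alone. Scrublet called 3 of the 247 cells as doublets.

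**Figure D2:**
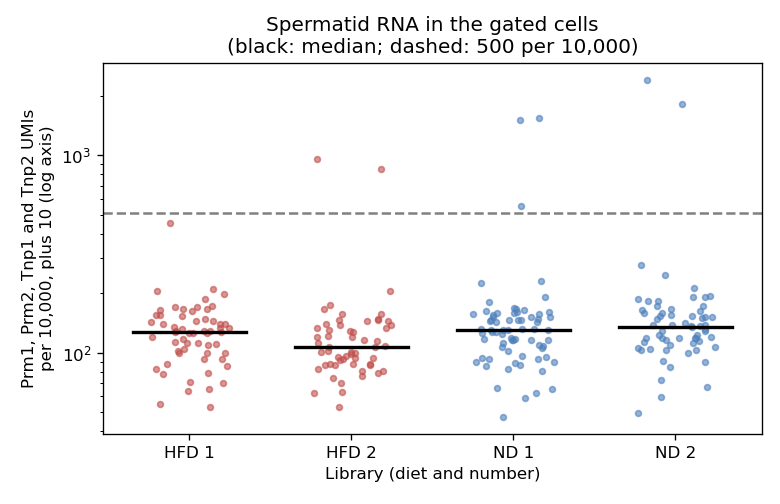
Prm1, Prm2, Tnp1 and Tnp2 UMIs per 10,000 in each gated cell, plus 10, on a log axis (y) by library (x), with 1 point per cell and the median as a black bar. The medians lie between 96.6 and 126 before the 10 is added, and 7 cells (2 of HFD 2, 3 of ND 1 and 2 of ND 2) lie above the dashed line at 500.

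The share of gated cells did not differ between the diets beyond the spread of the libraries. It was 0.436% (95% Clopper-Pearson interval 0.332 to 0.562) and 0.390% (0.295 to 0.506) with HFD, and 0.459% (0.358 to 0.580) and 0.425% (0.326 to 0.545) with ND. The groups overlapped, with 0.413% ± 0.0322 (SD, n = 2) in HFD and 0.442% ± 0.0239 in ND and a two-sided exact permutation p of 0.667. The order depended on depth. With a common floor of 2000 UMIs per cell the shares were 0.455% and 0.307% in HFD and 0.160% and 0.273% in ND, and with a floor of 1638 UMIs, the highest of the library minima, they were 0.436% and 0.406% against 0.367% and 0.374%. Under both floors the HFD libraries were above the ND libraries, each with an exact permutation p of 0.3333, the smallest that 2 libraries against 2 can give. The ND barcodes reached lower, and 52 and 32 gated cells in ND had under 2000 UMIs, against 7 and 20 in HFD. The number of gated cells per macrophage-gated cell was 0.728 and 0.544 in HFD and 0.583 and 0.5 in ND, which overlap.

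Gated cells had higher median depth in the HFD libraries. Their median was 2531 UMIs in HFD 1 and 2170 in HFD 2, against 1744.5 in ND 1 and 1906.5 in ND 2. The groups did not overlap (exact permutation p 0.3333), and the library minima fell in the same direction. Median genes per cell were 1580 and 1408.5 in HFD and 1210 and 1287 in ND. Thinned to 1500 UMIs per cell, which left out 0, 0, 13 and 7 cells as too shallow, the medians were 1067 and 1080 genes in HFD, and ND had 1078 and 1073 (exact permutation p of 1). Median mitochondrial shares were 0.843% and 0.909% in HFD and 0.898% and 0.833% in ND. The higher depth in HFD was shared by macrophage-gated cells, with medians of 3403 and 2855 UMIs against 2349 and 2483.5 in ND. Spermatid-gated cells overlapped, at 6883 and 5739 in HFD and 5706 and 6254 in ND.

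**Figure D3:**
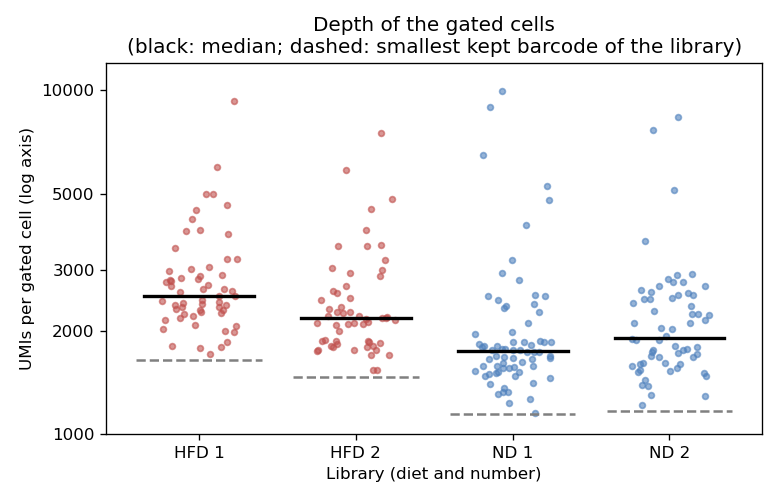
UMIs per gated cell on a log axis (y) by library (x), 1 point per cell, with the median as a black bar and the smallest kept barcode of the library as a dashed line. The medians are 2531 and 2170 in HFD and 1744.5 and 1906.5 in ND, and the dashed lines are at 1638, 1468, 1141 and 1171.

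For the diet comparison, UMIs were summed over the gated cells of each library and tested with edgeR's quasi-likelihood test, with Benjamini-Hochberg adjustment over 3309 genes. It called 7 genes (0.212% of those tested) at an adjusted p under 0.05, all lower in HFD. They were Ifi27l2a, Ifit3 and Ifit1 of the interferon-induced list, the surface protein gene Ly6c2, and the spermatid genes Tnp1, Tnp2 and Prm1. No gene was called higher in this fit, while without the low-count filter 3 of the 31 genes called were higher in HFD. Leaving out HFD 1, HFD 2, ND 1 or ND 2 gave 33, 34, 23 or 28 called genes, with all 7 among them except for Ifit1 without ND 2. At an unadjusted p under 0.05 there were 187 lower (5.65%) and 96 higher (2.90%). Folds below are HFD over ND on the log2 scale, and levels are UMI sums or CPM, which scale the counts of the tested genes to equal library totals after TMM normalization.

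Ifi27l2a, an interferon-induced gene of the Ifi27 family (chromosome 12, 103442167 to 103443680, GRCm38), counted 15 and 10 UMIs with HFD against 68 and 58 with ND. The groups were far apart. Its level was 98.4 ± 14.3 CPM (SD, n = 2) against 542 ± 24.0, or -2.44 on the log2 scale (SE 0.27, adjusted p 0.000838 by edgeR with Benjamini-Hochberg adjustment). It was called in 19 of the 20 alternatives run, all but one that left out cells with over 100 spermatid UMIs per 10,000, which left 19 and 30 cells in HFD and 22 and 15 in ND and under which no gene was called (log2 ratio -2.36, edgeR adjusted p 0.219).

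Ifit3 (chromosome 19, 34583531 to 34588731) had no UMI in HFD 1 or HFD 2 (0 and 0) against 21 and 22 with ND. Set against 3 counts over the HFD group, its share of the pooled UMIs was 15.1-fold higher in ND. That figure takes the ND count as exact and leaves out the spread between libraries. The call itself is from edgeR (Benjamini-Hochberg adjusted p 0.0037). Ifit1 (chromosome 19, 34640871 to 34650009) had 0 and 1 UMIs with HFD against 18 and 24 with ND. Its ratio of ND over HFD was 44.3, with an exact counting interval of 7.53 to 1790 (edgeR, Benjamini-Hochberg adjusted p 0.00666). The call of Ifit1 was lost with DESeq2 (adjusted p 0.172) and limma (0.122), and in edgeR without ND 2 (adjusted p 0.16), with 3 gate genes required (0.309) and with the replicate number as a block (0.103). That of Ifit3 was lost with limma (adjusted p 0.122), and in edgeR with 3 gate genes (0.391) and with the block (0.103).

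In single cells, Ifit1 or Ifit3 was detected in 0 of 59 and 1 of 56 cells in HFD and in 25 of 70 and 25 of 62 cells in ND. The shares of cells with a UMI were 0% (Clopper-Pearson interval 0 to 6.06) and 1.79% (0.0452 to 9.55) in HFD, against 35.7% (24.6 to 48.1) and 40.3% (28.1 to 53.6) in ND. The intervals cover the counting of cells within a library and do not compare the diets. Among macrophage-gated cells the shares were 13.6% and 7.77% in HFD and 55.8% and 54.0% in ND, and among spermatid-gated cells 0%, 0%, 0.469% and 0.436%. Cells with CD8 transcripts made up 24 of the 51 cells with either gene, and cells with Trdc 0. In ND, 10 of 25 and 13 of 25 cells with Ifit1 or Ifit3 had CD8 transcripts. Of all gated ND cells, 20 of 70 and 24 of 62 had CD8 transcripts. Trdc was in only 4 and 3 gated ND cells, too few for its 0 to be read, and co-detection was not tested.

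Most other genes of the interferon-induced list had lower values in HFD. Of its 60 genes 59 were matched, 55 had a UMI and 13 were abundant enough to be tested. Of the 13, 3 were called lower, 10 did not pass, and 11 had an unadjusted p under 0.05. The median log2 ratio of the 13 was -1.68, with Ifit3 and Trim30a set against 3 HFD counts as well as at their fitted values, against 0.00 over all genes tested. Tested genes with few UMIs in HFD could enter only through ND, so all 55 were also counted. Over the genes tested, both HFD libraries lay below both ND libraries in 19.0% and above them in 19.6%. In the list they lay below in 13 of the 13. Over all list genes they lay below in 46 of the 55 (83.6%) and above in 0, against 12.6% and 14.4% of the 17542 genes with a UMI. The list was written with earlier results of these libraries known, so its direction is not independent evidence.

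Summed over the list, the gated cells held 11.6 and 10.7 UMIs per 10,000 in HFD and 36.9 and 37.0 in ND, or 11.1 ± 0.627 (SD, n = 2) against 37.0 ± 0.0239. The 42 genes too low to be tested showed it as well, with 4.10 and 3.07 against 13.3 and 14.5 per 10,000. Under the floor of 2000 UMIs per cell the list stood at 11.8 and 10.1 against 25.4 and 29.1. Thinned to 1500 UMIs, gated cells held a mean of 2.05 and 1.63 list UMIs in HFD and 6.67 and 6.42 in ND. At least 5 list UMIs were found in 14 and 9 cells in HFD and in 44 and 48 cells in ND, so the difference was spread over many cells.

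**Figure D4:**
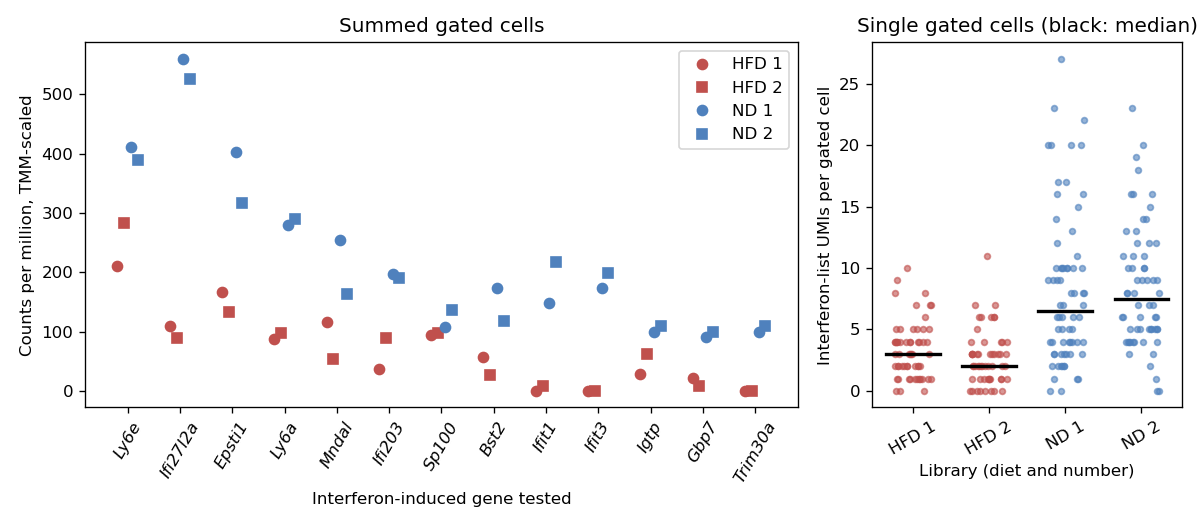
Left, CPM (y axis, TMM-scaled) of the 13 tested interferon-induced genes (x axis) in the summed gated cells of each library, red for HFD and blue for ND. Right, UMIs of the whole list in each gated cell (y axis) by library (x axis), with medians of 3 and 2 in HFD and 6.5 and 7.5 in ND as black bars.

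Among list members that did not pass, Ly6a, the Sca-1 surface protein of activated T cells, came nearest. Its UMIs were 12 and 11 with HFD against 34 and 32 with ND (log2 ratio -1.63, SE 0.30; adjusted p 0.0511 by edgeR with Benjamini-Hochberg adjustment). Its adjusted p ranged from 0.00464 (edgeR, gate sum of 10) to 0.874 (DESeq2) over the alternatives. Trim30a had 0 and 0 UMIs against 12 and 12, or 8.44-fold higher in ND when set against 3 HFD counts in the same way as Ifit3. It did not pass (edgeR, Benjamini-Hochberg adjusted p 0.0771). Epsti1 (-1.26), Bst2, which tethers virus particles to the membrane (-1.72), and the nucleic acid sensor family genes Ifi203 (-1.68) and Mndal (-1.26) had log2 ratios with edgeR adjusted p from 0.0946 to 0.333. Sp100, a nuclear body protein gene, was nearest to no change (log2 ratio -0.34, SE 0.38).

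Several members of low count had fewer UMIs in HFD. Zbp1, a sensor of left-handed nucleic acid, had 0 and 2 UMIs with HFD against 13 and 9 with ND. Irf7, the factor that amplifies type I interferon, had 1 and 2 against 7 and 13. Rsad2, the antiviral enzyme viperin, had 0 and 0 against 3 and 6. None of these 3 genes was tested.

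Genes that sense and carry the interferon signal did not show the same size of difference. Of 16 receptor and signal genes, all with a UMI, 2 were tested and neither passed: Jak1 with a log2 ratio of -0.08 (SE 0.33) and the receptor chain Ifngr1 with 0.34 (SE 0.40). The list stood at 5.85 and 4.71 per 10,000 UMIs in HFD and 6.42 and 5.62 in ND, which overlap. Ifng, the type II interferon made by T and NK cells, had 28 and 11 UMIs with HFD against 26 and 33 with ND (log2 ratio -0.72, SE 0.34; adjusted p 0.596 by edgeR with Benjamini-Hochberg adjustment). The UMI sums overlapped, while the CPM, 203 and 97.2 in HFD against 214 and 299 in ND, did not.

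Ly6c2, a surface protein of effector and memory CD8 T cells and of monocytes (chromosome 15, 75108158 to 75111970), counted 26 and 25 UMIs with HFD against 76 and 70 with ND. The ND libraries were alike and well above HFD. Its level was 205 ± 23.1 CPM (SD, n = 2) against 630 ± 6.38, or -1.63 on the log2 scale (SE 0.23, adjusted p 0.00572 by edgeR with Benjamini-Hochberg adjustment). It had a UMI in 15 and 19 cells in HFD and in 31 and 28 in ND, and 0 UMIs in the macrophage-gated cells of all 4 libraries. The gene has a near-identical neighbour in its family, so how reads were shared between them is uncertain. Of 13 monocyte and granulocyte genes, a list that includes Ly6c2, 10 were at 0 UMIs in all gated cells. Its edgeR call was lost with the replicate block (log2 ratio -1.62, adjusted p 0.0668), with 3 gate genes (-1.58, 0.309) and with cells over 100 spermatid UMIs per 10,000 left out (-2.11, 0.172).

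The other called genes were transcripts of elongating spermatids. Tnp2, a transition protein that replaces histones, had 327 and 205 UMIs with HFD against 652 and 641 with ND (log2 ratio -1.41, SE 0.14; edgeR, Benjamini-Hochberg adjusted p 0.000438). Tnp1 had 262 and 157 against 419 and 530 (-1.32, SE 0.18; edgeR adjusted p 0.0037) and the protamine Prm1 769 and 681 against 1186 and 1542 (-1.03, SE 0.15; edgeR adjusted p 0.00634). Both groups were separate in each, and the elongating spermatid list, led by these genes, stood at 127 and 163 per 10,000 UMIs in HFD and 221 and 312 in ND. The difference of -121 was -75.8 without ND 2. The 7 cells with at least 500 spermatid UMIs per 10,000 held 39.6% of the 4 genes' UMIs in the gated cells of HFD 2, 52.1% in ND 1 and 63.4% in ND 2. Without those cells the log2 ratios were -0.18 for Tnp2, -0.03 for Tnp1 and -0.12 for Prm1, and none was called, while Ifi27l2a, Ifit3, Ifit1 and Ly6c2 were called as before. The cells were chosen by their UMIs of Prm1, Prm2, Tnp1 and Tnp2, so the shift of the spermatid genes follows in part from that choice. Without the 6 cells gated on Cd3d and Trbc2 alone the ratios of Tnp2, Tnp1 and Prm1 were -0.54, -0.51 and -0.61, again not called.

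**Figure D5:**
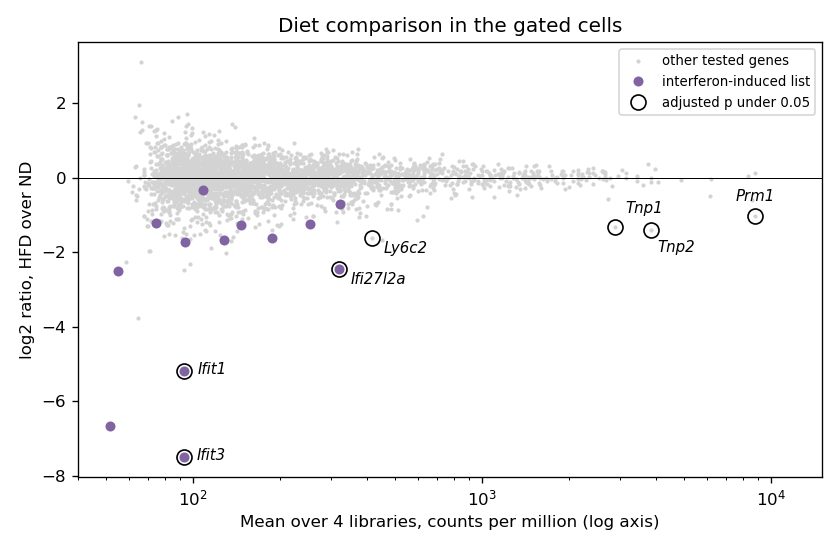
Log2 ratio of HFD over ND (y axis) against mean CPM on a log axis (x) for the 3309 genes tested in the summed gated cells, with the 13 interferon-induced list genes in purple and the 7 called genes ringed. The called genes all lie below 0, and the fitted ratios of Ifit3 and of Trim30a, the other point near the bottom, depend on the prior count because both HFD libraries are at 0.

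T cell identity genes showed no called difference. Of 22 receptor and signalling genes 14 were tested and 0 passed, with a median log2 ratio of -0.10. The summed list stood at 18.3 and 18.6 per 10,000 UMIs in HFD and 18.5 and 20.7 in ND, which overlap. Trbc1 had 32 and 39 UMIs against 18 and 24 (log2 ratio 0.64, SE 0.30), Thy1 27 and 27 against 20 and 22, and Trac 26 and 20 against 22 and 27. Cd8a (-0.16, SE 0.34) and Cd8b1 (-0.16, SE 0.33) were not called either. A p that misses the threshold does not show that levels were equal, and the SEs allow differences of some size.

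None of the tested effector and residency genes passed. Gzmb, the granule protease of cytotoxic cells, had 9 and 7 UMIs with HFD against 21 and 27 with ND (log2 ratio -1.69, SE 0.37; edgeR, Benjamini-Hochberg adjusted p 0.0945). It was called in 5 of 18 alternatives, among them without HFD 2 (edgeR adjusted p 0.0454) and without ND 1 (0.0208), with adjusted p from 0.0208 to 1.00 over all 18. Gzmb was found in 4 and 5 cells against 13 and 20. Ccl5, the most abundant of these genes, had 451 and 253 UMIs against 247 and 392, in no order of diet (-0.01, SE 0.22). Of 19 cytotoxic and NK genes 4 were tested and 0 passed.

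Of 12 residency and memory genes 6 were tested, 0 passed and 3 had an unadjusted p under 0.05, all lower in HFD, against 5.65% of all genes tested. They were Cxcr6, with 14 and 14 UMIs against 25 and 25 (log2 ratio -0.94, SE 0.32; edgeR, Benjamini-Hochberg adjusted p 0.359), Rgs1, a brake on chemokine receptor signalling, with 31 and 30 against 40 and 45 (-0.59), and the chemokine Xcl1 with 18 and 17 against 26 and 25 (-0.65). The groups were separate in each, as they were, with HFD below, in 19.0% of all genes tested. The summed list stood at 9.60 and 10.2 per 10,000 UMIs with HFD against 12.6 and 14.3 with ND.

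Other genes had higher values in HFD, and none was called. Icos, the co-stimulator of activated T cells, had 15 and 21 UMIs with HFD against 5 and 5 with ND (log2 ratio 1.72, SE 0.49; edgeR, Benjamini-Hochberg adjusted p 0.262), from 8 and 11 cells against 4 and 4. Il7r, the receptor for the survival cytokine IL-7, had 9 and 12 UMIs against 3 and 2 and was not tested. Slc2a3, a glucose transporter, had 139 and 86 against 72 and 61 (0.63, SE 0.18; edgeR adjusted p 0.266). Icos was called under none of its alternatives. Among the genes with the smallest p in this direction were also Sept10 (1.43), Gm6653 (1.35) and Zfr (1.24), none of which passed.

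MHC class I genes, which present peptides to CD8 T cells and are themselves interferon-responsive, had slightly lower values in HFD. All 14 had a UMI, 8 were tested, 0 passed, and the median log2 ratio was -0.38. H2-D1 had 100 and 71 UMIs against 108 and 110 (-0.47, SE 0.16; edgeR, Benjamini-Hochberg adjusted p 0.394), B2m 129 and 102 against 133 and 126 (-0.28) and H2-K1 143 and 124 against 142 and 120 (-0.09). Per 10,000 UMIs the list stood at 29.4 and 28.5 in HFD and 34.9 and 37.1 in ND. The groups did not overlap, with the smallest possible exact permutation p of 0.3333.

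The other lymphocyte and pathway lists gave 0 called genes. Immediate early and heat shock genes, which also respond to tissue dissociation, had 17 tested with a median log2 ratio of -0.24. At an unadjusted p under 0.05, 4 were lower in HFD and 1 higher, against 5.65% and 2.90% of all genes tested. Both HFD libraries lay below both ND libraries in 10 of the 17 and above them in 4, against 19.0% and 19.6%. The transcription factor gene Jun had 8 and 7 UMIs with HFD against 22 and 23 with ND (log2 ratio -1.68, SE 0.36; edgeR, Benjamini-Hochberg adjusted p 0.0942). Hspa1a, a heat shock chaperone, had 16 and 13 against 38 and 28 (-1.29, SE 0.29; edgeR adjusted p 0.105), while Nfkbia, an inhibitor of NF-kappaB, had 46 and 45 against 23 and 26 (0.78, SE 0.26; edgeR adjusted p 0.359). These 3 were named after their values were seen, and the part of such genes in the diet differences was not tested. The list's sum overlapped, at 68.3 and 69.2 per 10,000 UMIs in HFD and 64.9 and 72.5 in ND, with Junb at -0.02 and Hsp90aa1 at 0.21. Proliferation genes had 8 tested with a median of 0.00, lipid and glucose metabolism 5 with -0.01 and leukocyte adhesion 7 with -0.12. Apoptosis and survival had 8 tested with -0.37, over a range of -1.16 to 1.12. At an unadjusted p under 0.05, 1 was higher in HFD and 1 lower. The lower gene was Gimap4 at -0.997 (SE 0.29, edgeR with Benjamini-Hochberg adjusted p 0.28). Summed, the lipid and glucose list was higher in both HFD libraries (21.0 and 18.4 per 10,000 UMIs) than in both ND libraries (17.6 and 16.1). Among its 5 tested genes, only Slc2a3, described above, had both HFD libraries above both ND libraries, and 0 had them below. The separate sums therefore do not show a rise of the list as a whole. Chemokine and receptor genes had 5 tested with a median of -0.65 and 3 at an unadjusted p under 0.05, all lower in HFD. They were Ccl4 and, already counted in the residency and memory list, Cxcr6 and Xcl1. Cytokines had 2 tested with a median of -0.61, both separate in CPM with HFD below. None of these passed, and B cell and checkpoint genes had 0 tested. Innate lymphoid genes had 2 tested, Id2 at -0.98 (SE 0.40; edgeR, Benjamini-Hochberg adjusted p 0.486) and Rora at -0.02 (SE 0.43). The naive, MHC class II and steroid receptor lists had 1 each. They were Klf2 at -0.71 (SE 0.54), Cd74 at 0.00 (SE 0.99) and Nr3c1 at 0.02 (SE 0.50).

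Macrophage-gated cells of the same libraries were compared as the other leukocytes of the tissue. In them edgeR called 97 of 7147 genes (1.36%). Of these 86 were lower in HFD (1.20%), among them 30 of 48 tested interferon-induced genes, with a median log2 ratio of -1.76 for that list. Of the 13 list genes tested in lymphocyte-gated cells, 8 were called lower in macrophage-gated cells, Ifi27l2a with a log2 ratio of -1.52 (SE 0.20) and Mndal with -1.85 (SE 0.28). The difference between the changes of the populations was tested as an interaction with the library as a block. It called 0 of 6399 genes, with 248 at an unadjusted p under 0.05. Without the library block the count was 0 too, with doublets left out or without the low-count filter it was 3, and it was 10, 10, 1 and 12 with HFD 1, HFD 2, ND 1 or ND 2 left out. For Ifi27l2a the interaction was -0.95 (SE 0.35; edgeR, Benjamini-Hochberg adjusted p 1.0), and the smallest p belonged to the calcium-binding protein gene S100a6. Gated lymphocytes held 122 and 130 S100a6 UMIs with HFD against 138 and 101 with ND, and macrophage-gated cells 9 and 20 against 45 and 65 (interaction 2.03, SE 0.39; edgeR adjusted p 0.493). Genes with 0 UMIs in the macrophage-gated cells of every library, Ly6c2 and Gzmb among them, could not be called by this test.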

How the data were processed

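The deposited matrices hold raw UMI counts per gene and barcode, whole numbers with no normalization. Per the file headers they were written by software version 3.0.2 in the 10x layout, from a 3′ version 3 kit per the labels' protocols, and the build is mm10 per the submitters' processing notes. The aligner and annotation are not given in the sources used here. All 55450 gene IDs matched GENCODE M21 (GRCm38), from which gene positions come. The members and lists were chosen with earlier results of these data known.

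Barcodes and cells were gated as the report states. Macrophage-gated cells had at least 2 of C1qa, C1qb, C1qc and Csf1r, a sum of at least 5 per 10,000 UMIs and 0 UMIs of the lymphocyte genes other than Ptprc. Spermatid-gated cells had at least 500 per 10,000 of Prm1, Prm2, Tnp1 and Tnp2. Doublets were called with Scrublet in scanpy 1.11.5 (expected rate 0.1) and were kept in the main results. Counts were summed per library and tested with edgeR 4.0.16 in R 4.3.3 (filterByExpr, TMM, quasi-likelihood), and DESeq2 1.42.0 and limma 3.58.1 were alternatives. The fit was tested on simulated data. Single values were compared by two-sided exact permutation over the 4 libraries. Gated cells held 140171 to 170869 UMIs per library, which limits precision.

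The genes to be named were all called genes, up to 3 tested genes of highest mean CPM per list, and up to 5 per direction of smallest p with at least 40 UMIs. Some genes under this rule are only counted in their lists above, without a ratio of their own. Genes outside the rule that are named for their role, and the comparison of co-detected genes, were chosen after their values were seen. Thinning was to 1500 UMIs. Alternatives covered the gate, depth, doublets, mitochondrial limit, spermatid RNA, normalization, filter, test and each library left out. Floors at 1638 UMIs, removal of cells with at least 500 spermatid UMIs per 10,000 and removal of cells gated on Cd3d and Trbc2 alone were added after seeing the data.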

Additional observations from a re-analysis of the deposited data

How the results depend on the processing

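The share, as a log2 ratio of HFD over ND, was -0.10, and -0.18 to -0.02 with each library left out. It was -0.28 with a gate sum of 10, 0.84 with the floor of 2000 UMIs, 0.18 with the floor of 1638, 0.49 without cells over 100 spermatid UMIs per 10,000, and 0.22 against macrophage-gated cells. The share of CD3 cells differed by -5.16 percentage points, by -10.1 with the floor of 2000 UMIs and by -7.55 to -2.76 with each library left out. Elongating spermatid RNA differed by -121 per 10,000 UMIs. It differed by -18.5 with a gate sum of 10, -58.2 with 3 gate genes and -49.2 without cells gated on Cd3d and Trbc2 alone. Without the 7 spermatid-rich cells, chosen by genes of the same list, it differed by -8.51. With each library left out it differed by -167 to -75.8. The cause was not tested.

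In place of 7 genes, edgeR called 31 without the low-count filter, 15 with a gate sum of 10, 1 with 3 gate genes (Ifi27l2a), 16 without the macrophage exclusion, 16 with the floor of 2000 UMIs (where Ifit1 and Ifit3 were too low to be tested), 0 without cells over 100 spermatid UMIs per 10,000 (59 at an unadjusted p under 0.05, over 1442 genes tested), 4 without cells gated on Cd3d and Trbc2 alone, and 23 to 34 with each library left out, where a lone library is assumed to vary like the pair. DESeq2 called 6 and limma 5. Tnp1 turned to 0.040 on the log2 scale without cells over 100 spermatid UMIs per 10,000, a cut that counts Tnp1 itself. With the replicate number as a block 2 genes were called, Tnp2 and Ifi27l2a. The numbers are not shown to pair the libraries, since deviations of same-numbered libraries had a correlation of -0.09 over 3309 genes. The interaction called 3 genes without the filter, 3 without doublets and 1 to 12 with each library left out, in place of 0.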
